A study of Mus musculus with 768 samples.

Results

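The wells described here held cells of the mouse adrenal anlage that carried reads of the angiotensin receptor gene Agtr2 but little chromogranin B (Chgb), and they are called low-Chgb wells below. They were proposed as early chromaffin cells, the cells of the adrenal medulla that secrete hormones, and were chosen by measured values. A well qualified with Agtr2 of at least 500 CPM (counts over the column total, scaled to 1000000), Chgb from 50 to under 2000 CPM, Sox10 under 10 CPM and Prph under 100 CPM. Of the 751 wells with at least 50000 reads, 77 met the rule. At E12.5 these were 43 of 380 (11.3%, with an exact Clopper-Pearson 95% interval of 8.31 to 14.9), and at E13.5 they were 34, or 9.16% of the wells kept (6.43 to 12.6).

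All embryos carried Wnt1-Cre and the R26Tomato reporter. Wnt1-Cre marks the neural crest lineage, so that Tomato labels cells descended from it, whatever their present type. Cells positive for Tomato were taken from the sympatho-adrenal anlage and sorted singly into plates of 384 wells, with 1 plate for embryonic day E12.5 and 1 for E13.5, and sequenced with Smart-seq2, a full-length method for polyadenylated RNA. No other genotype or treatment was used. The labels name neither animals nor litters, so each age counts as 1 sample, age and plate cannot be told apart, and no difference between wells or ages was tested. The values below describe these 2 plates.

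Chromaffin cells and sympathetic neurons both arise from the neural crest, and many chromaffin cells arise from Schwann cell precursors, glial cells that travel along nerves and mark themselves by Sox10. On the way the precursors pass through a short-lived bridge state, marked by the serotonin-gated channel gene Htr3a, before they take up catecholamine synthesis and fill dense-core granules. Chromogranins are the acidic proteins that pack those granules, Agtr2 encodes the type 2 angiotensin receptor, and Prph encodes peripherin, a filament of peripheral neurons.

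The low-Chgb wells were set beside 3 other groups of wells, none of which shares a well with them. High-Chgb wells had Th of at least 200 and Chgb of at least 2000 CPM (83 wells at E12.5 and 110 at E13.5). They had no limit on Sox10 or Prph, and 45 and 79 of them met both limits of the low-Chgb rule. Levels of Schwann cell precursor and neuronal genes were thus compared between groups chosen by unlike limits. Bridge wells had Htr3a of at least 100, Agtr2 under 50, Chgb under 2000, Sox10 under 10 and Prph under 100 CPM (14 and 7 wells). Prph-high wells had Prph of at least 100, Chgb under 2000 and Sox10 under 10 CPM (24 and 75 wells), and this last group was added after the values had been seen. Because the same wells supplied both the choice and the levels, every difference between these groups is a description. Values for E12.5 stand before those for E13.5 throughout, and a pair joined by against sets the low-Chgb wells first. The range in brackets after a level is its exact Poisson 95% interval over the summed reads of a group, and that after a share is its Clopper-Pearson interval.

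The chromaffin markers Dbh, Th and Slc18a1 bear on the proposed name. Dbh, the enzyme that turns dopamine into noradrenaline, reached 200 CPM in 36 of the 43 wells and in 27 of the 34. Slc18a1, the monoamine transporter of chromaffin granules, reached 100 CPM in 35 and in 27 wells. Th, whose product sets the pace of catecholamine synthesis, reached 200 CPM in only 21 and 16 wells and had no read at all in 10 and 5. All 3 markers had a read in 32 of 43 and 26 of 34 wells. Of the low-Chgb wells, at least 2 reads of Th were held by 29 of 43 wells (67.4%, 51.5 to 80.9) and 26 of 34 wells (76.5%, 58.8 to 89.3), while Schwann cell precursor wells (Sox10 of at least 100 and Htr3a under 10 CPM), which should lack Th and had median depths of 280392 and 263798 reads, gave 19 of 75 wells (25.3%, 15.99 to 36.7) and 15 of 90 wells (16.7%, 9.64 to 25.995). After every well had been thinned to 100000 reads, the 4 shares were 64.3% and 76.5% against 18.7% and 16.1%. Pnmt, which makes adrenaline, had no read in any of the 77 wells. Neuronal genes were also present. Stmn2, a regulator of microtubules in growing neurons, reached 500 CPM in 8 and 22 wells, and the neuropeptide gene Cartpt reached 100 CPM in 0 (up to 8.22%) and 12. Prph-high wells held the 3 markers within 2-fold of low-Chgb wells. The log2 folds of low-Chgb over Prph-high wells were 0.86 and 0.78 for Th, 0.11 and 0.02 for Dbh and 0.73 and 0.93 for Slc18a1. The markers thus fitted the name for part of the wells only and did not differ 2-fold from Prph-high wells, and the group is called by its rule.

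The rule sits within a continuous range. Of the wells kept, 57.4% and 65.8% reached the Agtr2 limit. Of these, 90 and 66 wells had Chgb between its limits and 20 and 61 had less, while those with more made up 28.4% and 31.5% of all wells kept. Of the wells between the limits, 36 and 8 exceeded the Sox10 limit and 11 and 27 the Prph limit, with 0 and 3 over both. At the upper Chgb limit the nearest values were 1817 inside and 2129 outside, then 1965 and 2090.5. At the lower Chgb limit they were 65.7 inside and 36.2 outside, then 54.4 and 27.7. For Agtr2 they were 536 inside and 499 outside, then 608 and 444. Sox10 stood at 5.11 inside and 10.4 outside, then 3.73 and 45.1, and Prph at 85.5 and 117.03, then 92.6 and 107.9. Agtr2 itself came to 3813 CPM (3778 to 3848) and 4984 CPM (4937 to 5030.5) over the summed reads of the low-Chgb wells, and Chgb to 527 and 475 CPM. High-Chgb wells had 8243 and 8198 CPM of Agtr2 and 8407 and 15791 CPM of Chgb.

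Reads per low-Chgb well spanned 98027 to 384519 at the first age, with a median of 290324, and 135476 to 319940 at the second, with a median of 271630. These compare with medians of 281561 and 269320 in high-Chgb wells. At 100000 reads per well they showed medians of 6788.5 and 6164 genes, against 6714 and 6234.5. Bridge wells were shallower at E13.5 (median 203261 reads), as were Stmn2-rich wells, described below, at E12.5 (214474 against 300371 in the other low-Chgb wells). No pair of wells held identical values. No doublet caller was run. As a sign of more than 1 cell, reads of both Xist and Y-linked genes (at least 5 of each) were counted, which gave 0 of 77 low-Chgb wells and 1 high-Chgb well at each age. Markers of other cell types were summed. The 10 adrenal cortex markers summed to 80.1 and 104.9 CPM, with 6 and 7 of them without a read, among these the cortical factor Nr5a1. Mesenchyme markers came to 123.8 and 29.2 CPM, of which 1 well at E12.5 held 2159.9 CPM against a median well at 51.9. Endothelial, erythroid, immune, melanocyte and sensory neuron markers came to 20.6 CPM or less each. Intervals of levels and shares cover counting error only, and the reads carry no molecular identifiers.

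**Figure D1:**
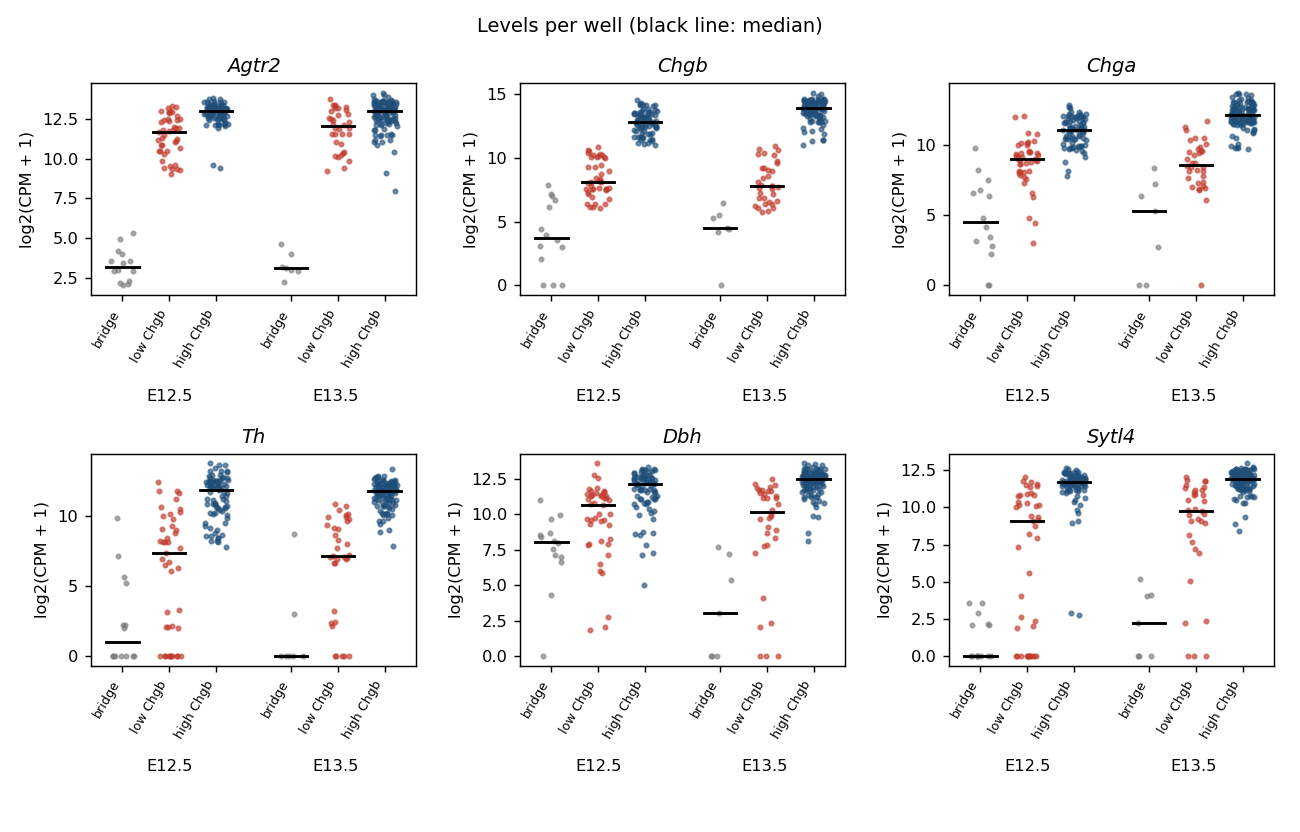
Levels of Agtr2, Chgb, Chga, Th, Dbh and Sytl4 in single wells as log2(CPM + 1), by group and age, with a line at the median of each group. Agtr2 and Chgb were used to choose the groups, and high-Chgb wells also needed Th of at least 200 CPM. For Chga, Dbh and Sytl4 the medians of low-Chgb wells lie above those of bridge wells and below those of high-Chgb wells at both ages. Those of Th have the same order, to which the Th limit contributes.

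Between low-Chgb and high-Chgb wells, chromaffin markers were lower in low-Chgb wells in 7 of 9 and 8 of 10 measured genes, and the medians of catecholamine, granule and release genes were below 0. Most replication, mitosis and bridge genes were higher. Genes entered the counts from 5 CPM in 1 of the groups onwards, and differed when the fold of CPM + 1 came to 2 or more. Of 11450 genes measured at E12.5, 10.04% were higher and 9.13% lower in low-Chgb wells, and of 11602 at E13.5 13.99% were higher and 14.3% lower. In the same direction at both ages, 6.62% of 11056 genes were higher and 5.15% lower. The median log2 fold of all genes was 0.06 and 0.03. These shares are the background for the counts that follow. Th and Chgb, which defined the high-Chgb wells, and the other genes of the rule were left out of the counts.

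Chgb and Th, the granule protein and the synthetic enzyme that set the 2 groups apart, share a short sequence in front of their start sites. The 250 bases before each start site are shown 5′ to 3′ on the gene's own strand, with the cyclic AMP response element TGACGTCA, to which factors of the CREB family bind, in capitals. The sequences are those of RefSeq on build GRCm38.p6, whereas the reads were aligned to mm9.
Chgb, chr2:132781392-132781641, + strand: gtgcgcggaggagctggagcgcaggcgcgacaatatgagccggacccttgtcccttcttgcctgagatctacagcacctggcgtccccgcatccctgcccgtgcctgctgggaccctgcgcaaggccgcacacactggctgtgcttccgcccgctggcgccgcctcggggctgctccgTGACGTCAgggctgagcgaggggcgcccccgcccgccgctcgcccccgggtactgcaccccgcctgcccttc
Th, chr7:142899996-142900245, - strand: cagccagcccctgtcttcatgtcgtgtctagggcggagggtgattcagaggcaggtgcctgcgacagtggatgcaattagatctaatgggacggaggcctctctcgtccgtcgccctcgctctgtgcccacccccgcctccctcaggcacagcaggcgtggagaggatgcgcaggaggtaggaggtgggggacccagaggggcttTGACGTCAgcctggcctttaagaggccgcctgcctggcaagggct
The element begins at position -72 in Chgb and -45 in Th, counted from the start site. Its 8 letters read the same on both strands. From 250 bases before to 50 after the start they occurred in 588 of 32851 promoters (1.79%). Counted by gene, with a match in any promoter, as for the lists below, they occurred in 549 of 27025 genes (2.03%). Of the catecholamine list, 11 of 16 genes had a promoter in the table and 2 held the letters (Th and the transporter Slc18a2). Of the granule list, 15 of 17 had one and 3 held them (Chgb, Scg2 and Pcsk1), and of the release genes 12 of 21 had one and 1 held them (Syn1). A match describes the sequence alone, and no binding was measured here.

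Genes that make, store and take up catecholamines were at least 2-fold lower in 6 of 14 and 9 of 15 measured genes, and higher in 1 and 2, with median log2 folds of -0.60 and -1.24. Th, which is part of the rule for the high-Chgb wells, had lowest, median and highest values of 0, 165.3 and 5553 CPM over the low-Chgb wells, then 0, 142.6 and 1868. The medians of high-Chgb wells were 3678 and 3502 CPM, which 1 and 0 low-Chgb wells reached. Dbh ran through 2.65, 1587 and 12445 CPM and then 0, 1178 and 5757 CPM, and 3 and 1 wells reached the median of high-Chgb wells. Its summed level was 1858 CPM (1834 to 1883) against 4445 CPM (4417 to 4472) at E12.5, and 1696 CPM (1669 to 1723) against 5686 CPM (5658 to 5714) at E13.5. The wells of the groups overlapped for Dbh, with most low-Chgb wells in the lower part of the range. Slc18a1 stood at 407 against 1046 and 286.99 against 1366 CPM (log2 folds -1.36 and -2.25), and 4 and 2 wells reached the high-Chgb median. Gch1, the first enzyme in the synthesis of the cofactor of Th, differed more, at 98.7 against 727 and 124.6 against 984 CPM (log2 folds -2.87 and -2.97), and had a read in 24 of 43 and 21 of 34 wells. Slc18a2, the second vesicular monoamine transporter, had log2 folds of -2.20 and -2.66. Cyb561, which supplies the electrons Dbh needs inside the granule, had -1.28 and -1.81.

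Granule cargo differed in few genes and the release machinery in more. Of the genes for dense-core granule cargo and peptide processing, 3 of 16 and 5 of 15 were lower, 2 and 0 higher, and the medians were -0.26 and -0.66. Chga, the second chromogranin, was not used in the choice. It ran through 6.92, 499.9 and 4299 CPM at E12.5 and 0, 385.02 and 3335 CPM at E13.5, against 221.6, 2141 and 7192 and 845, 4426 and 13342 CPM in high-Chgb wells. Its summed level was 705 against 2549 and 658 against 5170.3 CPM, log2 folds of -1.85 and -2.97. The ranges overlapped, and 2 of 43 and 0 of 34 low-Chgb wells reached the median of the high-Chgb wells. Ptprn, a membrane protein of dense-core granules, stood at 79.6 against 359.7 and 76.7 against 553 CPM, and the granule protein gene Resp18 at 34.5 against 115.3 and 65.1 against 229.2 CPM. Genes of exocytosis were lower in 10 of 19 and 11 of 19 (medians -1.04 and -1.15). Sytl4, which docks granules through Rab27, ran through 0, 539 and 4207 and 0, 876 and 4162 CPM, with high-Chgb medians of 3352 and 3923 CPM. It had a read in 32 of 43 and 31 of 34 wells, so that the group held wells without it beside wells at over 1000 CPM. Its partner Rab27a stood at 116.3 against 443 and 101.98 against 403 CPM. Syt1, the calcium sensor of vesicle fusion, stood at 101.1 against 350.9 and 132.6 against 795 CPM, Doc2b, another calcium sensor, at 120.2 against 374.6 and 56.3 against 345.01 CPM, and the vesicle protein gene Syp at 255.2 against 598 and 244.1 against 695 CPM. Cadps2, a priming factor of dense-core vesicles, went the other way, at 65.8 against 19.7 and 35.3 against 9.35 CPM. That gene is also on the list of bridge genes, and in female wells of E13.5 its log2 fold was -2.8 in place of 1.81.

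Peptide hormones and neuropeptides were lower in 5 of 10 and 7 of 11 measured genes, with 1 and 3 higher and medians of -0.76 and -2.22. Penk, the enkephalin precursor of chromaffin cells, stood at 139.1 against 346.1 and 88.7 against 330.6 CPM. It was read in 14 of 43 and 9 of 34 wells and reached 3644 and 2572 CPM in single wells. Without wells that carried mitosis transcripts, which are counted below, its log2 fold at E13.5 was 0.01 in place of -1.89. Only 9 low-Chgb wells were left in that setting. Npy, the neuropeptide Y gene, stood at 17.3 against 119.05 and 100.96 against 497 CPM, Gal (galanin) at 4.17 against 33.8 and 6.25 against 97.9 CPM and Adm (adrenomedullin) at 80.9 against 367.8 and 57.9 against 556 CPM.

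Oxygen sensing and hypoxia genes were lower in 10 of 17 and 12 of 18 measured genes and higher in 1 at each age, with medians of -1.16 and -1.61. Epas1 encodes HIF-2alpha, the oxygen-regulated factor of the chromaffin lineage. It ran through 0, 108.7 and 2182 CPM in low-Chgb wells at E12.5 and 0, 1.81 and 571 CPM at E13.5, whereas the high-Chgb medians were 1587 and 1741 CPM. The summed level was 343.5 CPM (333.1 to 354.2) against 1503 CPM (1487 to 1519) and, at E13.5, 73.8 CPM (68.3 to 79.7) against 1694 CPM (1679 to 1709). Just 1 and 0 low-Chgb wells reached the high-Chgb median, and 32 of 43 and 17 of 34 had a read. Rgs5, a regulator of G protein signals, stood at 44.4 against 523 and 12.7 against 937 CPM. Cox4i2, a subunit of cytochrome oxidase used in oxygen sensing, stood at 9.42 CPM at E12.5, where high-Chgb wells had 81.2, and was read in 1 low-Chgb well at E13.5, against 69 of 110 high-Chgb wells. Egln3, which marks HIF proteins for breakdown, was higher (9.25 against 3.82 and 82.1 against 0.755 CPM). That level came from 4 and 10 low-Chgb wells, all with Stmn2 of at least 500 CPM, and the direction turned without the Stmn2-rich wells (log2 folds of -2.27 and -0.81).

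Imprinted genes were lower in 9 of 19 and 12 of 19 and higher in 1 and 2 measured genes, with medians of -0.96 and -1.24. Dlk1, a membrane protein found in chromaffin cells, ran through 36.4, 434 and 2396 CPM and then 0, 177.5 and 1249.7 CPM, against high-Chgb medians of 1549.7 and 2282 CPM that 2 and 0 low-Chgb wells reached. Meg3 and Rian, non-coding RNAs of the same imprinted domain as Dlk1, stood at 1141 against 3215 and 865 against 5432 CPM and at 160.8 against 378.6 and 129.6 against 387.5 CPM. Nap1l5, another imprinted gene, stood at 20.1 against 98.8 and 36.6 against 191.2 CPM, and Peg12 was higher at 40.3 against 4.98 and 40.9 against 5.75 CPM.

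**Figure D2:**
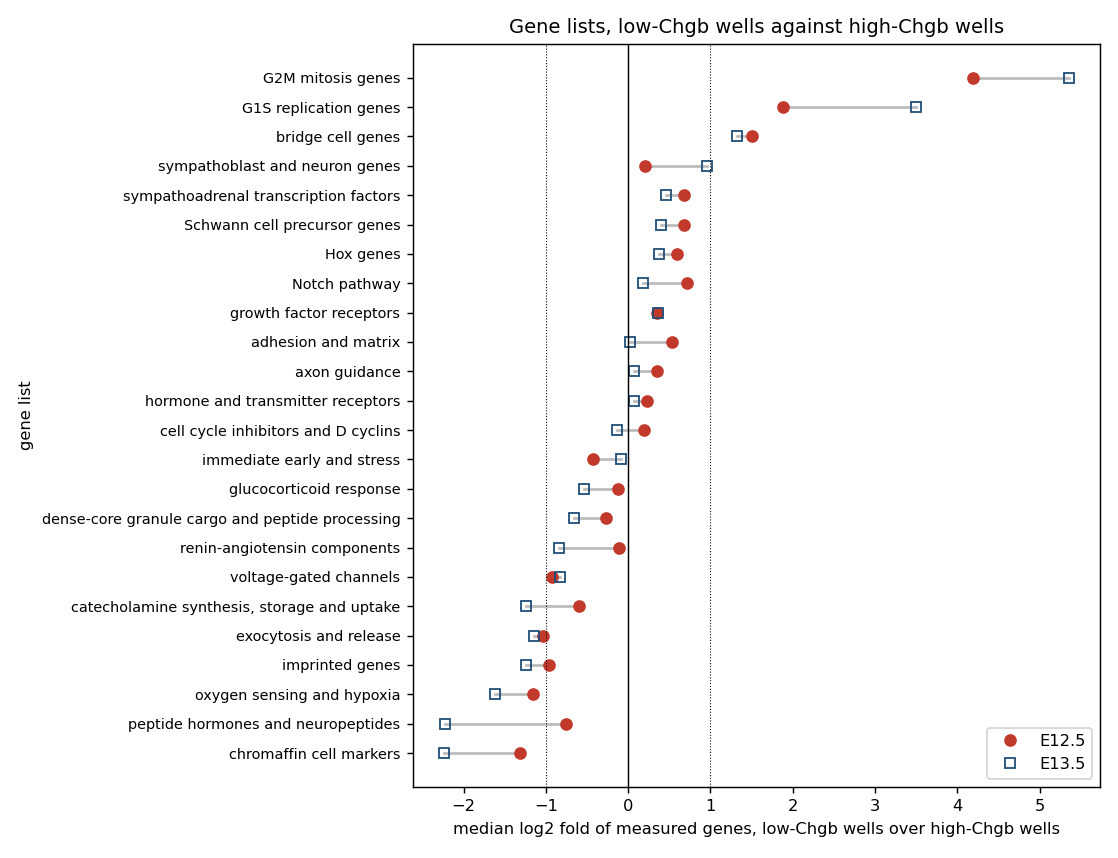
Median log2 fold (CPM + 1) of the measured genes of each list other than those for cell types outside the lineage, low-Chgb wells over high-Chgb wells, with filled circles for E12.5 and open squares for E13.5 and dotted lines at 2-fold. Of the lists plotted, mitosis genes have the highest medians (4.19 and 5.36) and chromaffin markers the lowest (-1.31 and -2.24).

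Of 16 measured transcription factors of the lineage, 6 and 5 were higher in low-Chgb wells and 1 and 0 lower (medians 0.68 and 0.46). The others differed by less than 2-fold. Sox11 and Sox4, factors of immature neural cells, stood at 394.1 against 68.4 and 401 against 52.6 CPM and at 56.4 against 15.7 and 137.1 against 37.1 CPM, and Tbx2 at 236.7 against 98.98 and 237.6 against 45.8 CPM. Isl1, needed by sympathetic and chromaffin precursors, stood at 765 against 358.5 and 697 against 335.6 CPM. Gata3, a factor of sympathoadrenal development, had log2 folds of 0.61 and 0.96. The high-Chgb median of Gata3 was reached by 36 of 43 and 26 of 34 low-Chgb wells.

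Genes of the bridge state were higher in 11 of 17 and 10 of 16 measured genes and lower in none (medians 1.503 and 1.32). The list follows earlier work on these plates, so that its direction is no independent evidence. Ckb, the brain creatine kinase, stood at 496 against 97.9 and 208.5 against 28.8 CPM, Stra6, the retinol transporter, at 270.7 against 83.8 and 78.5 against 10.9 CPM, and Htr3a at 56.1 against 18.4 and 27.3 against 2.84 CPM. Htr3a was read in 14 of 43 and 6 of 34 low-Chgb wells and reached 100 CPM in 6 and 3. Genes of Schwann cell precursors, with Sox10 left out, were higher in 5 of 12 and 6 of 12 and lower in 1 and 2. With Sox10, they summed to 532 and 467 CPM, against 242.004 and 280.1 in high-Chgb wells and 6882 and 16767 in precursor wells. High-Chgb wells had no Sox10 limit, and at E13.5 the highest of them held 9697 CPM of these genes against a median of 155.2. Among the precursor genes, the protease inhibitor gene Serpine2 stood at 236.7 against 39.5 and 84.5 against 30.5 CPM. Genes of sympathoblasts and neurons were higher in 4 of 19 and 9 of 21 and lower in 4 and 1 (medians 0.20 and 0.96). Slc18a3, the vesicular acetylcholine transporter, stood at 37.8 against 1.48 and 48.5 against 1.11 CPM and was read in 11 of 43 and 12 of 34 low-Chgb wells. The neurofilament genes Nefl and Nefm stood at 1482 against 506 and 1655 against 173.5 CPM and at 1858 against 729 and 1827 against 250.5 CPM. Without wells that carried mitosis transcripts, which left 9 low-Chgb wells at E13.5, the log2 fold of Slc18a3 was -1.12 in place of 4.55.

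Cell cycle genes gave the most uniform difference. Of the G1S genes of DNA replication, 19 of 20 and then 20 of 20 were higher in low-Chgb wells (medians 1.88 and 3.49). Of the G2M genes of mitosis, 20 of 20 were higher at each age (medians 4.19 and 5.36). The proliferation marker Mki67 ran through 0, 56.6 and 2276 CPM and 0, 281.7 and 1956 CPM over the wells. Its summed level was 351.03 CPM (340.5 to 361.8) against 11.4 CPM in high-Chgb wells at E12.5 and 541 CPM (526 to 557) against 12.6 CPM at E13.5. The wells were not alike, and Mki67 had a read in 32 of 43 and 24 of 34. Mcm5, a subunit of the replicative helicase, stood at 187.3 against 22.2 and 451 against 5.64 CPM. Rrm2 and Tyms, which make nucleotides for DNA, stood at 414 against 15.4 and 522 against 4.21 CPM and at 129.4 against 10.5 and 166.8 against 9.46 CPM. Of mitosis genes, the motor gene Kif11 stood at 118.5 against 1.62 and 146.3 against 0.719 CPM, the spindle factor Tpx2 at 293.02 against 4.72 and 183.5 against 5.46 CPM and cyclin B1, Ccnb1, at 81.8 against 1.26 and 73.3 against 0.503 CPM. Aurkb, a kinase of chromosome segregation, stood at 46.004 and 65.2 CPM in low-Chgb wells, against 0.0898 CPM (0.0109 to 0.324) and 0.108 CPM (0.0222 to 0.315) in high-Chgb wells.

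Counted per well, mitosis transcripts (at least 5 of the 20 G2M genes with a read at 100000 reads) were present in 27 of 42 (64.3%, 48.03 to 78.4) low-Chgb wells at E12.5 and 25 of 34 (73.5%, 55.6 to 87.1) at E13.5. In high-Chgb wells they were present in 12 of 80 (15%, 7.998 to 24.7) and 5 wells (4.63%, 1.52 to 10.5). Prph-high wells carried them in 18 of 22 (81.8%, 59.7 to 94.8) and 59 of 74 (79.7%, 68.8 to 88.2), Schwann cell precursor wells in 50 of 75 (66.7%, 54.8 to 77.1) and 44 of 87 (50.6%, 39.6 to 61.5), and all wells kept in 54.5% and 46.4%. At full depth the shares were 72.1% and 73.5% against 21.7% and 13.6%. Reads of Th and Mki67 (at least 2 of each) were found together in 18 of 42 wells (42.9%, 27.7 to 59.04) and 20 of 34 wells (58.8%, 40.7 to 75.4) after thinning. Without the wells that carried mitosis transcripts, the mitosis list had medians of -0.258 and 0.03, and Mki67 at E13.5 a log2 fold of -3.02 in place of 5.32. That setting removes wells by these same genes, so the lower values follow from it. It kept 15 and 9 low-Chgb wells. Of the inhibitors and D cyclins, 2 of 11 were higher at each age and 0 and 1 lower. Cyclin D1, Ccnd1, which carries cells into the cycle, ran through 0, 262.2 and 5713 and 0, 1783 and 5863 CPM, against high-Chgb medians of 45.7 and 4.26 CPM that 35 and 30 low-Chgb wells reached. Gadd45g, a growth arrest gene, stood at 64.5 against 9.48 and 23.3 against 8.74 CPM.

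Receptors and channels went in both directions. Of the growth factor receptors, 5 of 15 and 6 of 16 were higher and 1 at each age lower. Kit, the receptor of stem cell factor, stood at 48.1 against 11.3 and 29.98 against 0.935 CPM, Gfra1, a co-receptor for GDNF, at 33.2 against 12.7 and 36.3 against 3.74 CPM, and the cytokine receptor Lifr, which is on no list, at 143.8 against 12.1 and 148.4 against 12.04 CPM. Of receptors for hormones and transmitters, 4 of 19 and 5 of 18 were higher and 2 and 6 lower. Cckbr, a cholecystokinin receptor, had no read in any high-Chgb well. Against the limit of 3 reads over those wells, its 17.3 and 6.93 CPM were at least 128.05-fold and 64.23-fold higher, but they came from 6 wells at E12.5 and 1 at E13.5. Npy2r, a receptor of neuropeptide Y, was at least 64.95-fold and 209.5-fold higher by the same measure, from 3 and 4 wells. The adenosine receptor Adora2a was lower at 53.9 against 357.8 and 3.29 against 149.4 CPM. Of the voltage-gated and leak channels, 9 of 20 and 10 of 23 were lower and 1 and 2 higher (medians -0.93 and -0.83). Cacna1d, the calcium channel that paces chromaffin cells, stood at 36.3 against 129.5 and 40.998 against 189.2 CPM. Kcnk3 and Kcnk9, acid-sensitive potassium channels, stood at 23.5 against 79.9 and 37.02 against 181.5 CPM and at 11.7 against 48.8 and 7.72 against 39.1 CPM.

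Of the renin-angiotensin components besides Agtr2, 1 of 5 at each age was higher and 1 and 2 were lower, among them Ace, the angiotensin-converting enzyme, at 53.8 against 146.7 and 47.4 against 97.3 CPM (log2 0.01 at E13.5 without wells that carried mitosis transcripts). In the Notch pathway 3 of 13 and 4 of 14 were higher and 2 at each age lower, with the ligand gene Dll1 at 45.9 against 15.2 and 29.2 against 7.41 CPM and the receptor gene Notch1 at 48.2 against 9.48 and 21.6 against 7.66 CPM. Neither direction was general, since the log2 fold of Dll1 was -0.79 at E12.5 in wells with Htr3a under 10 CPM, and that of Notch1 was -1.53 at E13.5 in female wells. Hey1, a Notch target, stood at 29.003 against 79.2 and 13.7 against 41.5 CPM. Of the glucocorticoid response genes, 2 of 8 and 2 of 11 were higher and 1 and 4 lower. The receptor gene Nr3c1 stood at 16.8 against 55.1 and 43.6 against 109.6 CPM and its target Fkbp5 at 44.3 against 20.97 and 78.1 against 21.5 CPM. Among the Hox genes, which pattern the body axis, 6 of 21 and 5 of 22 were higher and 1 and 2 lower, with Hoxb9 at 96.5 against 39.02 and 53.9 against 17.5 CPM. Adhesion and matrix genes were higher in 9 of 23 and 4 of 20 and lower in 2 and 5, with fibronectin, Fn1, at 50.9 against 11.3 and 74.2 against 3.60 CPM. Axon guidance genes were higher in 4 of 17 and 4 of 19 and lower in 3 at each age, with the ephrin receptor Epha4 at 19.1 against 89.2 and 39.98 against 151.7 CPM. Immediate early and stress genes were higher in 2 of 14 and 1 of 13 and lower in 3 and 4, among the latter Fos at 117.9 against 289.5 and 184.4 against 519 CPM and Junb at 10.2 against 29.6 and 18.6 against 57.6 CPM. Their part in the other differences was not tested.

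Outside the lists, the 10 genes with the largest deficit at both ages, each at least 4-fold and read in at least 50% of high-Chgb wells, were Gipr, Scnn1b, Bhlhe40, Baiap3, Dgkh, Dnm1, Tmem130, Ppfia2, Fam183b and Galnt6. Gipr, the receptor of the incretin GIP, stood at 0.917 CPM at E12.5, where high-Chgb wells had 60.2, and had no read in the low-Chgb wells of E13.5. The 73.6 CPM in high-Chgb wells were at least 215.9-fold above the limit of 3 reads there. Scnn1b, a subunit of the epithelial sodium channel, stood at 9.58 CPM at E12.5 (log2 fold -4.09) and was at least 631-fold lower in low-Chgb wells at E13.5. Bhlhe40, a factor induced by hypoxia, stood at 9.42 against 222.9 and 9.65 against 171.6 CPM, and Baiap3, a relative of Munc13 that acts in dense-core vesicle release, at 20.3 against 201.004 and 13.3 against 351.8 CPM. At the higher level, the genes named by the same rule included Racgap1, Pbk, Spc25, Cenpk, Cdca3, Kif15, Kif20a and Pttg1, which act in cell division, and Lifr.

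Bridge wells lay on the other side of the low-Chgb wells for chromaffin genes. With only 14 and 7 bridge wells, levels in them rest on few cells. Of 11393 genes measured at E12.5, 11.9% were higher and 8.82% lower in low-Chgb wells, and of 11522 at E13.5 23.5% were higher and 15.9% lower. Chromaffin markers were higher in 9 of 9 and 10 of 10, catecholamine genes in 8 of 15 and 11 of 15, and granule genes in 11 of 16 and 11 of 14. Th stood at 704 against 89.8 and 424 against 35.4 CPM in low-Chgb against bridge wells and Dbh at 1858 against 350.5 and 1696 against 43.4 CPM. Sytl4 stood at 945 against 2.48 and 1271 against 8.02 CPM, and Gch1 at 98.7 against 1.10 and 124.6 against 0.668 CPM. Rab27a had no read in bridge wells, which puts low-Chgb wells at least 140.7-fold and 50.9-fold higher. Oxygen genes were higher in 11 of 17 and 9 of 16, with Epas1 at 343.5 against 24.2 and 73.8 against 24.1 CPM, and Slc2a3, the neuronal glucose transporter gene, stood at 165.1 against 3.31 and 83.5 against 0 CPM. The factor gene Hand1 stood at 128.01 against 0.827 CPM (0.17 to 2.42) at E12.5 and had no read in the bridge wells of E13.5, at least 124.5-fold below low-Chgb wells.

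Bridge genes, with Htr3a left out, were lower in low-Chgb wells in 7 of 17 and 16 of 17. Thbd, thrombomodulin, was nearly absent from low-Chgb wells (3.83 against 143.6 and 0.909 against 134.98 CPM). Ckb stood between bridge and high-Chgb wells, with 2341 and 2429.6 CPM in bridge wells. The Notch ligand gene Dll3 stood at 328.4 against 468 and 215.7 against 578 CPM and the factor gene Tlx2 at 436 against 606 and 284.8 against 694 CPM. S100a16, a calcium-binding protein gene, and Fbln2, which encodes a matrix protein, were lower outside the lists, at 25.002 against 175.8 and 14.1 against 305.4 CPM and at 8.92 against 59.8 and 8.40 against 80.9 CPM. Notch genes were lower in 5 of 16 and 8 of 15. Mitosis genes were higher in 0 of 20 and lower in 2 at E12.5 and higher in 20 of 20 at E13.5, where 3 of 7 bridge wells carried mitosis transcripts. At E12.5, 8 of 12 bridge wells carried them, and replication genes were lower in 11 of 20 in low-Chgb wells.

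Some genes lay higher in low-Chgb wells than on either side, in bridge and high-Chgb wells, or lower. At both ages, 35 genes were at least 2-fold higher than in both bridge and high-Chgb wells (0.469% of the 7458 genes with at least 20 CPM in low-Chgb wells), and 4 were lower than in both (0.0661% of 6049 with at least 20 CPM in both other groups). The 10 highest were Kif14, Slc18a3, St8sia2, Rapgef4, Iqgap3, Lix1, Chodl, Fam78b, Crabp1 and Arhgef39. Lix1 stood at 117.9 and 155.02 CPM, against 24.2 and 7.35 in bridge and 15.4 and 8.74 in high-Chgb wells. St8sia2, which adds polysialic acid to the adhesion molecule NCAM, stood at 72.3 and 134.1 CPM, against 11.3 and 6.01 and then 6.15 and 17.98. Those lower than in both included Tmbim1, Hey1 and the homeobox gene Dlx2. Dlx2 stood at 23.8 and 16.9 CPM, against 82.1 and 145.7 in bridge and 52.9 and 37.1 in high-Chgb wells. Prph-high wells are not part of this count. Against them, Slc18a3 (log2 folds -3.21 and -2.34), Crabp1 (-2.83 and -1.03) and Rapgef4 (-1.37 and -1.19) were lower in low-Chgb wells at both ages and Iqgap3 and Lix1 at E12.5 (-1.21 and -1.17), whereas Chodl was higher (3.43 and 2.75). Kif14, St8sia2, Fam78b and Arhgef39 lay within 2-fold of Prph-high wells at both ages. Slc18a3 came mostly from Stmn2-rich wells, described below.

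Prph-high wells were compared because part of the low-Chgb wells carried neuronal genes. Of 11389 genes measured at E12.5, 13.6% were higher and 9.39% lower in low-Chgb wells, and of 11294 at E13.5 10.8% were higher and 6.71% lower. With Stmn2-poor wells alone, which are described below, the 1220 higher and 758 lower genes of E13.5 became 2182 and 1959. Prph-high wells also held Agtr2 and Dbh. Agtr2 stood at 1846 and 2174 CPM in them, and Dbh at 1858 against 1727 and 1696 against 1672 CPM in low-Chgb against Prph-high wells, differing little. Sympathoblast and neuron genes, with Prph left out, were higher in 0 and lower in 11 of 22 and 6 of 23. Stmn2 stood at 300.9 against 2234 and 1307 against 3410.3 CPM. Cartpt was nearly absent from low-Chgb wells of E12.5 and present at E13.5, at 3.92 against 912 and 417 against 811 CPM. Bridge genes were higher in 13 of 17 and 10 of 16 and lower in 1 at each age, with Asb4 at 293.4 against 13.999 and 63.6 against 1.24 CPM. Imprinted genes were higher in 9 of 19 and 8 of 20, with the non-coding RNA H19 at 714 against 45.5 and 188.5 against 41.1 CPM and the cyclin kinase inhibitor gene Cdkn1c at 4525 against 450.3 and 1543 against 311.04 CPM. Oxygen genes were higher in 11 of 17 and 7 of 14, with Epas1 at 343.5 against 66.7 and 73.8 against 16.1 CPM. Chromaffin markers were higher in 2 of 10 and 2 of 10 and lower in 3 and 0. Catecholamine genes were higher in 2 of 15 and 2 of 15 and lower in 2 and 1, and granule genes higher in 2 of 16 and 1 of 14 and lower in 6 and 1. Release genes were higher in 1 at each age and lower in 4 of 19 and 6 of 20. Chga was among the higher granule genes, at 705 against 335.99 and 658 against 280.1 CPM. Mitosis genes were lower in 5 of 20 at E12.5 and in 0 at E13.5, where 1 was higher.

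Among themselves the low-Chgb wells were split by Stmn2. The gene and its limit of 500 CPM were chosen after the values had been seen, and 6 wells at each age lay between 250 and 1000 CPM. Stmn2 ran through 0, 8.11 and 2198 CPM at E12.5 and 0, 1261 and 3606 CPM at E13.5. The 8 and 22 Stmn2-rich wells had Gap43, a growth cone protein, at 1721 and 1656 CPM, against 499.6 and 298.3 in the others. Ccnd1 stood at 4070.1 and 2729.9 against 609 and 392.5 CPM, and it reached 1000 CPM in 8 of 8 and 21 of 22 Stmn2-rich wells. Hand1 stood at 509 and 340.2 against 56.4 and 80.4 CPM. Slc18a3 stood at 204.6 and 66.1 against 6.34 and 15.6 CPM, and Cartpt at 16.8 and 637 against 1.49 and 7.49 CPM. All 12 wells with at least 100 CPM of Cartpt were Stmn2-rich. Egln3 had no read in Stmn2-poor wells, at least 196.49-fold and 129.02-fold below Stmn2-rich wells.

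Stmn2-rich wells also held more of the catecholamine enzymes. Th stood at 1094 and 576 CPM in them against 631 and 140.7 CPM, and all 8 and 22 had a read of it. Dbh stood at 3795 and 2265 against 1494 and 633 CPM, and Gch1 at 290.8 and 182.7 against 62.5 and 15.96 CPM. Slc18a1 differed little, at 335.5 and 297.5 against 420.3 and 267.4 CPM. Stmn2-poor wells held more of the bridge genes Dll3, Ckb and Htr3a and of the factor gene Gata3. Dll3 stood at 385.04 and 502 CPM in them against 27.3 and 62.2, Ckb at 584 and 477 against 33.1 and 64.9, and Gata3 at 1135 and 1325 against 447 and 801. Htr3a was confined to them at E12.5 (66.6 against 0 CPM) and nearly so at E13.5 (76.9 against 0.697 CPM). Epas1 stood at 198.8 and 59.98 CPM in Stmn2-rich and 370.8 and 99.7 CPM in Stmn2-poor wells. Mitosis transcripts were present in 7 of 7 (100%, 59.04 to 100) and 20 of 22 (90.9%, 70.8 to 98.9) Stmn2-rich wells and in 20 of 35 (57.1%, 39.4 to 73.7) and 5 of 12 (41.7%, 15.2 to 72.3) of the others.

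**Figure D3:**
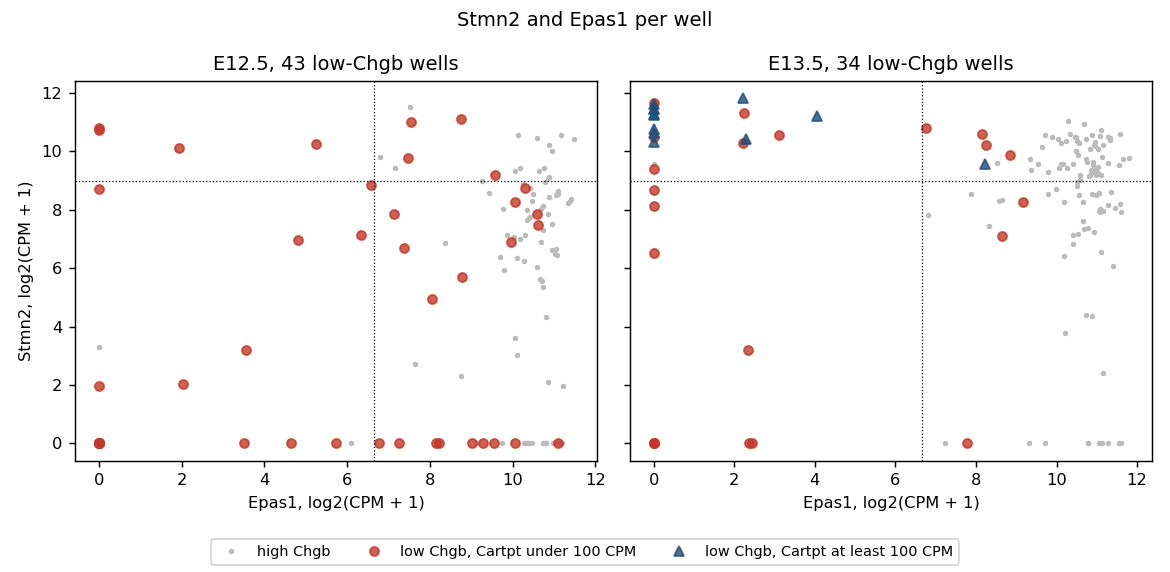
Stmn2 against Epas1 in each low-Chgb well (circles, or triangles where Cartpt reached 100 CPM) and each high-Chgb well (grey dots), as log2(CPM + 1), with dotted lines at 500 CPM of Stmn2 and 100 CPM of Epas1. At E12.5, 18 of 43 low-Chgb wells had Epas1 without Stmn2, 4 Stmn2 without Epas1, 4 both and 17 neither; at E13.5 these were 3, 17, 5 and 9 of 34.

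Within the rule, wells of higher Chgb ranked lower for mitosis genes at both ages, while Th and Dbh showed no rank shared by the ages. Over the genes of the lists and 43 and 34 wells, Spearman rho with Chgb is given as a description without p, and genes are ordered by the weaker of their 2 ages. The wells share a plate, and rho of Chgb with the reads per well was 0.03 and -0.00. By that order the highest were Ndufa4l2, a mitochondrial gene of hypoxia (0.51 and 0.54), Agtr2 (0.48 and 0.48), the guidance receptor Unc5c (0.40 and 0.61), Robo2 (0.38 and 0.49) and Meg3 (0.43 and 0.34), then, among others, Epha7, Rian, Ccnd2 and Btg1. By the same order the lowest were the mitosis genes Top2a (-0.51 and -0.53), Ccnb2, Ube2c, Cenpf and Bub1b. Several genes had a higher rho at E12.5 than at E13.5, among them Chga (0.51 and 0.06), Slc18a1 (0.43 and 0.08), Epas1 (0.47 and 0.00) and Dlk1 (0.57 and 0.05). Th (0.12 and -0.34) and Dbh (0.09 and -0.21) changed sign between the ages.

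In bins of Chgb from 50 to 200, 200 to 600 and 600 to 2000 CPM there were 18, 10 and 15 wells, then 14, 11 and 9. Agtr2 stood at 2518, 3737 and 5404 CPM, then 3758, 3759 and 8548 CPM. Chga stood at 354.8, 633 and 1171 CPM at E12.5, and at 724, 614 and 604 CPM at E13.5. Th showed opposite orders, with 394.04, 420.5 and 1278 CPM at E12.5 and 722, 290.5 and 99.5 CPM at E13.5. Epas1 stood at 96.1, 291.3 and 675 CPM, then 92.6, 28.9 and 99.5 CPM. Mitosis transcripts were present in 13 of 18, 9 of 10 and 5 of 15 wells at E12.5, with 1 well too shallow to thin counted as without, and in 14 of 14, 8 of 11 and 3 of 9 at E13.5. At both ages the bin of highest Chgb thus had the lowest share of wells with mitosis transcripts. At E13.5 the Stmn2-rich wells, which carried most of the Th, had a median Chgb of 204.7 CPM against 303.4 in Stmn2-poor wells, and their part in these orders was not tested.

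**Figure D4:**
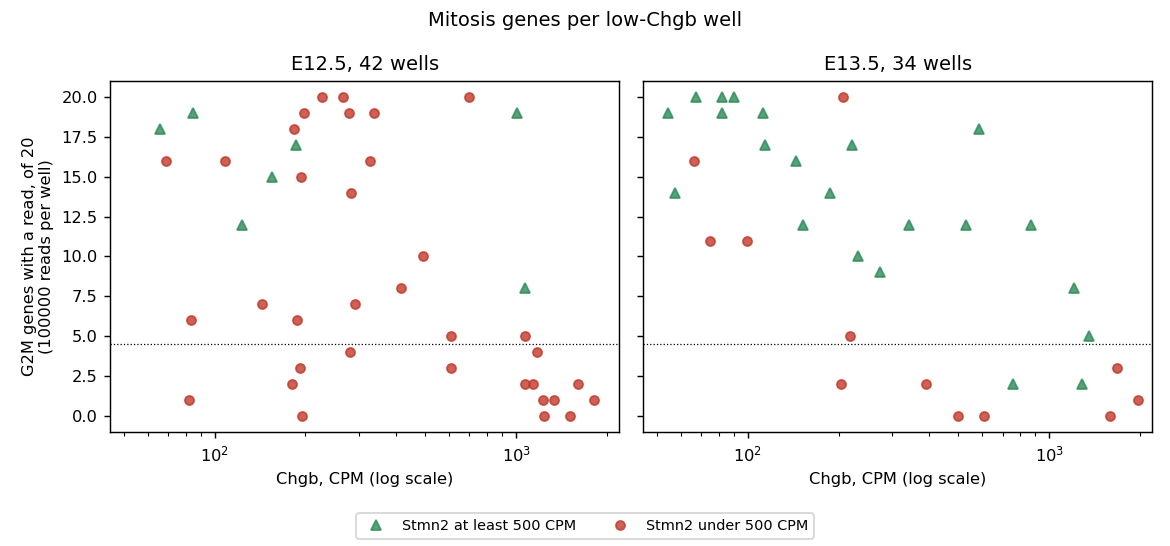
Number of the 20 G2M genes with a read at 100000 reads in each low-Chgb well, against Chgb in CPM on a log axis, with triangles for wells with at least 500 CPM of Stmn2 and a dotted line just under the limit of 5 genes. Wells over 1000 CPM of Chgb mostly lie under the line or just above it, and Stmn2-rich wells mostly above it.

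The sex of the embryos, read from Xist and Y-linked genes, stood in for embryo, which the labels do not give. Low-Chgb wells were 30 male and 13 female at E12.5 and 14 male and 18 female at E13.5, with 2 unassigned. They made up 11.5% of male and 11.5% of female wells at E12.5, and 7% (3.88 to 11.5) and 11.25% (6.81 to 17.2) at E13.5. High-Chgb wells made up 24.6% and 15.04% at E12.5 and 42.5% (35.6 to 49.7) of male and 13.75% (8.82 to 20.1) of female wells at E13.5. Of the low-Chgb wells at E13.5, 14 of 22 Stmn2-rich and 4 of 12 Stmn2-poor wells were female. Mitosis transcripts were present in 20 of 30 male and 7 of 12 female low-Chgb wells at E12.5 and in 8 of 14 and 15 of 18 at E13.5. The part of sex in the differences between groups was not tested, and comparisons within each sex are among the alternatives below.

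Between the ages, the low-Chgb wells differed in some neuronal and oxygen genes, while Chga, Th and Dlk1 lay within 2-fold. Of 11398 genes measured, 8.05% were at least 2-fold higher at E13.5 and 7.76% lower. Cartpt stood at 3.92 and 417 CPM (log2 6.41), Nsg2, a protein of neuronal endosomes, at 26.8 and 263.4 CPM (3.25), and Fgf13, a modulator of sodium channels, at 41.6 and 241.1 CPM (2.51). Lrr1, Tmem59l and Slco5a1 were also among the 6 highest, and Stmn2 had a log2 fold of 2.11. Lower at E13.5 were Pdpn, the membrane glycoprotein podoplanin, at 65.1 and 5.11 CPM (-3.44), Pde2a, which breaks down cyclic nucleotides, at 214.3 and 31.7 CPM (-2.72), the imprinted growth factor gene Igf2 at 190.8 and 31.7 CPM (-2.55), and Col1a2, Cwc22 and C2cd4b. Among these, Pde2a and Cwc22 were lower at E13.5 in high-Chgb wells as well, and Nsg2 was higher there. The log2 folds of low-Chgb over high-Chgb wells were 1.10 and 1.33 for Pde2a. They were -0.11 and 0.76 for Cwc22 and 0.73 and 1.13 for Nsg2. Mesenchyme markers also summed to less at E13.5, as given above, and their part was not tested. Epas1 had a log2 fold of -2.20 and H19 of -1.92. Chga had -0.10, Th -0.73 and Dlk1 -0.71. The share of Stmn2-rich wells was 18.6% (8.39 to 33.4) at the first age and 64.7% (46.5 to 80.3) at the second, beside the neuronal genes that were higher at E13.5. In the Stmn2-poor wells alone, Epas1 stood at 370.8 and 99.7 CPM and Cartpt at 1.49 and 7.49 CPM. Age and plate cannot be told apart.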

How the data were processed

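Smart-seq2 reads per gene were deposited by the authors as whole counts, 1 table per age with a column for each of 384 wells and no normalization. The authors aligned reads to mm9 with TopHat2 and counted them with HTSeq, per the submitters' processing notes, with versions not given in the sources used here. Strand in counting is not given either, so reads of overlapping genes cannot be told apart.

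Each column was matched to its sample by title. Wells under 50000 reads were left out. Counts were divided by the column sum (CPM), and reads were summed over the wells of a group. Folds are on log2(CPM + 1). Intervals are exact Poisson for levels and Clopper-Pearson for shares, at 95%. For shares of wells with reads, wells were thinned to 100000 reads (seed 5). With 1 plate per age no p-value was computed. Of 31 gene lists, 491 of 493 genes were in the tables. The members and lists were chosen with earlier results of these data known. Named genes are those of the rule, up to 4 per list and direction at least 2-fold apart at both ages, up to 10 (high-Chgb) or 8 (bridge wells) per direction outside the lists at least 4-fold apart with 20 CPM and a read in 50% of wells, up to 10 at least 2-fold higher or lower than both groups, up to 6 per direction between ages, and those of extreme Spearman rho with Chgb. Genes outside this rule (such as Stmn2, Gap43, Hand1, Gata3, Thbd, Asb4, H19 and Cdkn1c) were chosen after their values had been seen. Some genes that the rule names are not reported here. The fold computation was tested on simulated counts. Alternatives changed the limits, depth, scaling, sex, plate rows and cycling wells. Python 3.11.15, numpy 2.4.6, pandas 2.3.3, scipy 1.17.1 and matplotlib 3.10.9 were used.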

Additional observations from a re-analysis of the deposited data

Results flagged for a closer look

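A pair of genes lay at least 2-fold apart between low-Chgb and high-Chgb wells in opposite directions at the ages. Gfra2, the co-receptor for neurturin, had log2 folds of 1.99 at E12.5 (19.1 against 4.04 CPM, read in 9 of 43 low-Chgb wells) and -1.07 at E13.5 (14.4 against 31.3 CPM, read in 7 of 34). Vcan, the matrix proteoglycan versican, had 2.12 (40.4 against 8.53 CPM) and -1.94 (10.4 against 42.9 CPM), with a read in 12 and 5 low-Chgb wells. The median well of each group was at 0 for both genes. The difference between the ages was not tested, since each age is 1 plate.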

How the results depend on the processing

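Under the alternatives for which genes were counted, all but 16 counts, listed here, stayed within 1.5 times the reported count. Some settings gave only the share of low-Chgb wells. These were wells of at least 100000 reads, Agtr2 from 250 CPM, Chgb under 4000 CPM, no Sox10 limit and no Prph limit. Counts of genes, list medians and folds were not recomputed in them, so their stability there was not examined. At E12.5 the genes lower than in high-Chgb wells were 1870 in female wells, 1602 and 598 when genes counted from 1 or 20 CPM and 682 with a pseudocount of 5 CPM, and those higher were 733 from 20 CPM. Against bridge wells, higher genes were 2250 and 714 from 1 and 20 CPM, 2285 in plate rows I to P and 2704 without wells that carried mitosis transcripts, and lower genes 559 from 20 CPM, 1679 and 1743. At E13.5, from 20 CPM, 1059 genes were lower than in high-Chgb wells and 1722 higher than in bridge wells. With Stmn2 under 500 CPM, 2182 were higher and 1959 lower than in Prph-high wells. The share of low-Chgb wells at E12.5 was 8.16% and 16.3% with Chgb limits of 1000 and 4000 CPM and 20.8% with no Sox10 limit, and at E13.5 15.6% with no Prph limit.

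Of 2618 fold changes of single genes, 21 of at least 2-fold turned direction, and 456 others moved by at least 0.5 in log2. Egln3 turned at E12.5 with Agtr2 of at least 1000 CPM (-0.32), in rows I to P (-0.11), without mitosis transcripts (-1.76) and with Stmn2 under 500 CPM (-2.27), and at E13.5 in the last pair (-0.84 and -0.81). Without mitosis transcripts Ccnb1 (-0.24) and Kif11 (-0.45) turned at E12.5, and at E13.5 Ccnb1 (-0.25), Kif11 (-0.05), Aurkb (-0.15), Tpx2 (-2.16), Mki67 (-3.02), Slc18a3 (-1.12), Penk (0.01) and Ace (0.01). That setting leaves out wells by the mitosis genes, among which Slc18a3, Penk and Ace are not counted. It kept 15 and 9 low-Chgb wells. Dll1 turned at E12.5 with Htr3a under 10 CPM (-0.79), and at E13.5 Cadps2 (-2.8) and Notch1 (-1.53) in female wells, Notch1 in rows A to H (-0.01) and Cartpt with Stmn2 under 500 CPM (-1.61). Other causes were not tested. Of 816 list medians 68 changed sign, and 80 moved by at least 0.5 besides the 1 named next. Of these 68, 1 had a reported median of at least 1 in size (mitosis genes, -0.258 at E12.5 without mitosis transcripts), and the others were nearer 0. At E13.5 the glucocorticoid list, reported at -0.539, reached 1.204 after its change of sign. Hormone and transmitter receptors reached -0.848, cycle inhibitors and D cyclins 0.7 and adhesion and matrix genes -0.657. Other medians that changed sign reached -0.305 and -0.094 for sympathoblast and neuron genes, 0.029 for granule cargo at E12.5, and at E13.5 -0.633 for Schwann cell precursor genes, -0.525 for growth factor receptors and -0.255 for Hox genes. Comparisons with bridge wells in female wells and, at E13.5, in rows I to P had under 3 wells in a group and were not run. The Stmn2 limit and the Prph-high group were chosen after seeing the data. Depth limits statements on genes near the floor of 3 reads per group. No paired analysis was possible because each age is 1 plate of single wells with no animals named.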
